A study of Homo sapiens with 10 samples.

Results

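Replication-dependent histone genes make the bulk of the histones that package DNA as it is copied. They were taken as the rows of the deposited table whose symbol names an H1, H2A, H2B, H3 or H4 gene of the clusters HIST1 to HIST4, without a hyphen. This gave 70 genes of 26040 rows, with 55 in HIST1, 11 in HIST2, 3 in HIST3 and 1 in HIST4. Values are scaled fragments, meaning estimated sequenced fragments per gene, scaled by 1 factor per library and not divided by gene length. Of the 70 genes, 17 had a value of 0 in all 10 libraries, 21 lay above 0 but below 10 in every library (highest 9.805), and 32 reached 10 in at least 1 library. The 32 described below were 3 of 6 H1 genes, 8 of 17 H2A genes, 11 of 20 H2B genes, 4 of 13 H3 genes and 6 of 14 H4 genes. Of these, 18 reached 10 in 3 or more libraries and were tested (2 H1, 4 H2A, 7 H2B, 2 H3 and 3 H4). Of the 18, HIST1H2AD, HIST1H2BF, HIST1H2BN, HIST1H3H and HIST2H2AC reached 10 in fewer than 3 nutlin-3a libraries and needed untreated ones to be tested, which favours a lower call with the drug. HIST1H2AD, HIST1H2BF and HIST4H4 needed the shARVCF nutlin-3a libraries. Counts are therefore also given without such genes, their adjusted p comes from a fit with no filter, and neither count stands for all 70.

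The libraries came from U2OS, a human osteosarcoma cell line with wild-type p53. Lentiviral shRNAs reduced ARVCF, a catenin of the p120 family, in 3 lines that each carried a different shRNA, and a control line carried a negative control shRNA. All lines were kept under puromycin at 1 µg/ml, and the labels describe single clones. There were 3 shARVCF libraries with 10 µM nutlin-3a for 24 h, 3 control libraries with the same drug, 3 untreated shARVCF libraries and 1 untreated control library. Nutlin-3a keeps MDM2 off p53. The series asks how the p53 response changes when ARVCF is reduced. Control libraries were repeats of 1 line, so a difference between shARVCF and control lines also holds whatever else differed between these clones. Control nutlin-3a libraries 2 and 3 have library numbers well above the rest, from which a later library series was inferred.

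Most mRNAs of these genes end in a conserved stem-loop and carry no poly(A) tail. SLBP, the stem-loop binding protein, binds that end, NPAT drives transcription at the G1 to S boundary, and the mRNAs are made in S phase and degraded when DNA synthesis stops. Some of the genes can also give mRNAs that read past the stem-loop and are polyadenylated. The libraries were made with a kit that selects poly(A) RNA, so an mRNA without a tail was measured only as far as it passed that selection. Values therefore do not give the whole amount of these mRNAs in the cells.

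The deposited scaled totals ran from 17821751 to 19903778 fragments, and 1 fragment was worth between 0.850 and 1.30 scaled fragments, so members with values near 10 rest on few fragments. ARVCF had 1284, 1188 and 1232 scaled fragments in the shARVCF nutlin-3a libraries against 2928, 2571 and 2376 in the control nutlin-3a libraries, and 292, 343 and 338 untreated in the shARVCF lines against 618 in the untreated control. CDKN1A, the p53 target that inhibits cyclin-dependent kinases, had 28170, 27230 and 32930 in nutlin-3a shARVCF libraries against 2636, 3283 and 4528 in untreated ones. All 6 mesenchymal and osteoblast markers were measured, with sums of 121740 to 179070 per library, while sums were 229 to 469 for 4 epithelial, 46.6 to 107 for 3 endothelial and 1.9 to 14.4 for 5 blood markers (1 at 0 throughout). Most of the mesenchymal and osteoblast sum came from COL1A1, VIM and SPARC, and COL1A2 was low, at 1.83 to 15.5.

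The stem-loop itself is shown first, because it decides how these mRNAs end. It was found in GENCODE release 29 transcript models of 30 of the 70 genes and of 18 of the 32 described ones. Models of 33 genes hold the coding sequence alone and could not show it. Over all 57133 gene names with a model, 41 (0.0718%) held it, and 30 of those were these histone genes. Below, 1 gene stands for each of the 5 spellings, 5′ to 3′, with the 16 bases of the stem-loop in capitals and 4 flanking bases on either side.
HIST2H2BE: caaaGGCTCTTTTCAGAGCCaccc
HIST1H2BD: caaaGGCTCTTTTAAGAGCCacgc
HIST1H2AG: caacGGCTCTTTTCAGGGCCaccc
HIST1H4H: caaaGGCCCTTTTCAGGGCCgccc
HIST1H4I: aaaaGGCCCTTTTTAGGGCCccta
The first spelling was found in 6 H2A, 8 H2B and 2 H3 genes, and the second in 3 H2B and 2 H3 genes. The third was found in 1 H2A and 1 H2B gene. The fourth was found in 5 H4 genes and the fifth in 2 H4 genes, so every H4 stem-loop found began with GGCCC and none of the other types did.

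Where the models run on, they end well past the stem-loop. The model of HIST2H2BE goes on for 1729 nt after it, that of HIST1H2AG for 1761 nt, that of HIST1H2AC for 1114 nt and that of HIST1H4H for 630 nt, and all 4 hold a poly(A) signal (AATAAA or ATTAAA) in the last 50 nt. Models ending over 100 nt past the stem-loop, or holding such a signal, were found for 27 of the 70 genes. Of those 27 genes, 16 reached a value of 10 in some library and 12 were tested. Of the 33 genes with coding-only models, 12 reached 10 and 5 were tested. The median of the genes' mean values was 4.08 scaled fragments in the first class and 1.21 in the second. The highest mean stood the other way, at 915 in the first class and 2373, that of HIST1H2BK, in the second. The model of HIST1H2BK has 381 nt, while its genomic span in RefSeq is 8566 nt, so its class may not show how its mRNA ends. These values are not divided by length, and the classes rest on an annotation that may itself follow where RNA was seen.

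Promoters were compared because most of the tested genes moved the same way. RefSeq matched all 70 genes and gave a promoter for 63 of them (30 of the described genes), on GRCh38.p14. In the 250 bases before the start, the octamer ATTTGCAT, a site of OCT1 in H2B promoters, was found on either strand in 14 of 18 H2B and 11 of 16 H2A promoters and in 0 of 29 H1, H3 and H4 promoters, against 1.63% of 35116 RefSeq promoters. The CCAAT motif was found in 54 of 63 histone promoters, in 3 of 12 among H4, against 32.0% of all. The TATA motif TATAAA was found in 43 of 63, against 10.7% of all. On the other strand the motifs read ATGCAAAT, ATTGG and TTTATA, and none of them holds another. Promoters of the 5 genes with the most fragments are shown over the last 150 bases before the start, each on its own strand, with the 3 motifs in capitals. HIST1H2BK lies on the minus strand at chr6:27146856-27147005, HIST2H2BE on the minus strand at chr1:149886683-149886832, HIST1H2BD on the plus strand at chr6:26157972-26158121, HIST1H1C on the minus strand at chr6:26056471-26056620 and HIST1H2AC on the plus strand at chr6:26124022-26124171.
HIST1H2BK: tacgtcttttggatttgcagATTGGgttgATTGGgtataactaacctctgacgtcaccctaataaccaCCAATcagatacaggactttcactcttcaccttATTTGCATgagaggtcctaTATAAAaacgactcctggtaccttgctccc
HIST2H2BE: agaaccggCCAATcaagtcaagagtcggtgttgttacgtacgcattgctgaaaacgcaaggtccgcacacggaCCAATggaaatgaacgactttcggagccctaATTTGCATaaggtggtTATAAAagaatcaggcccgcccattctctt
HIST1H2BD: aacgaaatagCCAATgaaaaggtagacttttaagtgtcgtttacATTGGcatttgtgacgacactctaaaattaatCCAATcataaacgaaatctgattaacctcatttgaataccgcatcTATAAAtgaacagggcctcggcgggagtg
HIST1H1C: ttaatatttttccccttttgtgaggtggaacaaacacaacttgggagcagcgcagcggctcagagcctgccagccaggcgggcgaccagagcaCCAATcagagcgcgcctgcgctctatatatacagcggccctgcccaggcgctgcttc
HIST1H2AC: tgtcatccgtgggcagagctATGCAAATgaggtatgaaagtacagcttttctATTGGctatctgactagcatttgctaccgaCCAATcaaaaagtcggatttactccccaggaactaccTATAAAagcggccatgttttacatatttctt
The promoters of HIST1H2BK, HIST2H2BE and HIST1H2AC hold all 3 motifs in this stretch, that of HIST1H2BD holds the CCAAT and TATA motifs without the octamer, and that of HIST1H1C holds the CCAAT motif alone. A match in letters is not a measured binding site. Paired H2A and H2B genes start less than 250 bases apart, so 1 octamer can count for both genes. The octamers of HIST1H2AC and HIST1H2BC are the same bases, as are those of HIST2H2AC and HIST2H2BE and of other pairs. The H2A and H2B counts are thus not separate.

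Few genes carried most of the histone fragments. HIST1H2BK, HIST1H1C, HIST2H2BE, HIST1H2BD and HIST1H2AC held between 86.7% and 96.2% of the summed value of the described histone genes in each library. On hg38, by GENCODE release 29, HIST1H2BK lies at chr6:27146418-27146798 (minus strand), HIST1H1C at chr6:26055787-26056428 (minus), HIST2H2BE at chr1:149884459-149886652 (minus), HIST1H2BD at chr6:26158146-26171349 (plus) and HIST1H2AC at chr6:26124145-26139116 (plus), all protein-coding. Their means over the 10 libraries were 2373 for HIST1H2BK, 2204 for HIST1H1C, 915 for HIST2H2BE, 469 for HIST1H2BD and 227 for HIST1H2AC, in scaled fragments that are not divided by length. H1 is the linker histone that binds DNA between nucleosomes, and the other 4 types form the nucleosome core. HIST1H2BK and HIST1H1C are close copies of other family members in their coding sequence, and the sources used here do not state how shared reads were divided, so each member's value carries that uncertainty.

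Summed by type, the libraries with nutlin-3a were lower than the untreated ones of the same line kind for H2A, H2B, H3 and H4. H2B genes summed to 2496 ± 449 in shARVCF lines with nutlin-3a and 3929 ± 87.4 in the control line with nutlin-3a, against 4232 ± 953 in untreated shARVCF lines and 7772 in the untreated control library (SD, n = 3 each, 1 untreated control). H2A genes summed to 244 ± 19.5 and 152 ± 17.96 with the drug in shARVCF and control lines, against 462 ± 141 and 588 without it. The 2 drug groups thus stood in opposite order for H2A and H2B, with H2A higher and H2B lower in the shARVCF lines. H1 genes summed to 1363 ± 117 in nutlin-3a shARVCF lines and 3065.1 ± 680 in nutlin-3a control libraries, against 1895 ± 194 and 3297 untreated. H3 sums were 38.1 ± 14.1 and 54.3 ± 26.3 with the drug, against 84.7 ± 29.1 and 134 without. H4 sums were 42.4 ± 2.97 and 44.9 ± 19.95 with the drug, against 83.4 ± 43.3 and 88.6 without. Untreated shARVCF library 2 was the highest of its group for every type. For H4, untreated shARVCF libraries 1, 2 and 3 had 59.1, 133 and 57.8. Genes entered the sums by reaching 10 in any library. Of 11 that did so in 1 library, 8 did so in that one, which favours higher untreated sums. Group means without it were not computed. In the sums of H1 the highest library was control nutlin-3a library 1, and shARVCF and control libraries did not overlap under either treatment. In these bulk samples, fewer cells in S phase and less histone mRNA per cell cannot be told apart.

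**Figure D1:**
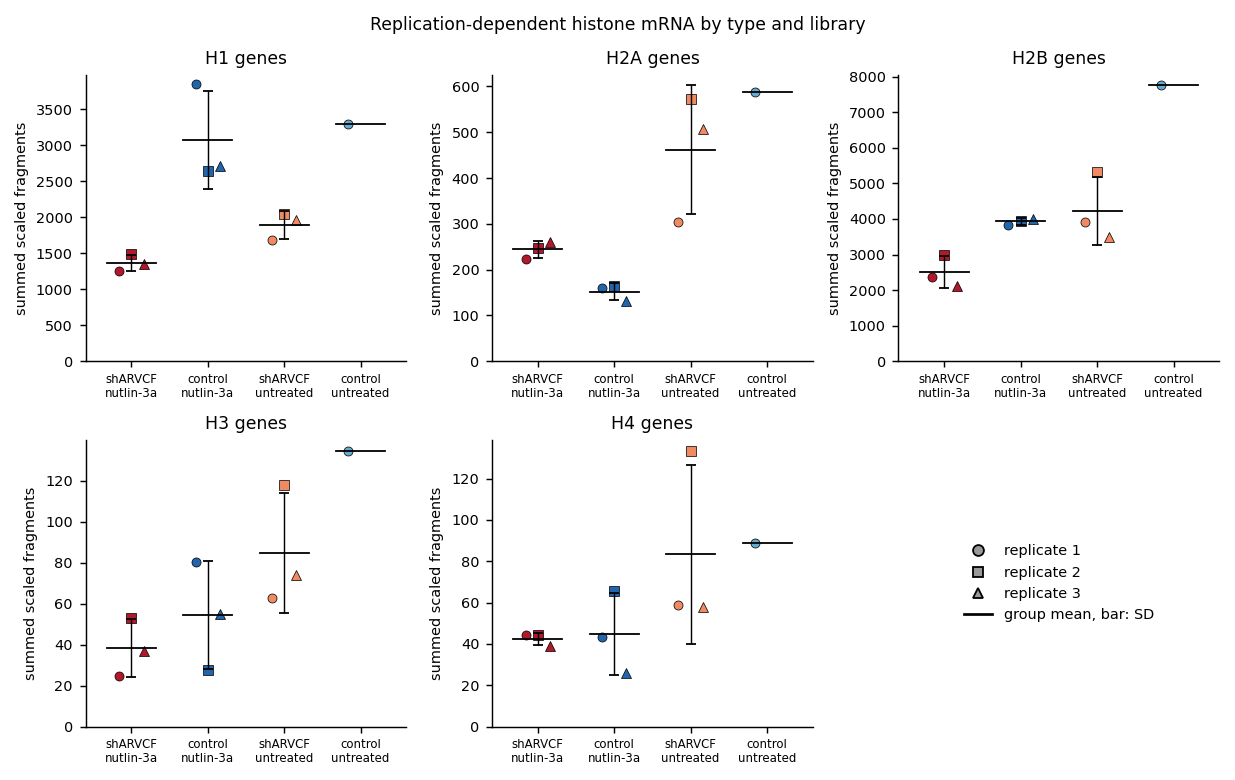
Summed scaled fragments of the described histone genes of each type (y axis, from 0) in 10 libraries by group (x axis). Points are libraries, lines are group means and bars are SDs (n = 3, no bar for the single untreated control). H2B averages 2496 ± 449 in nutlin-3a shARVCF lines, against 4232 ± 953 untreated, where library 2 is the highest (5305).

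More of the low members were seen in 1 library than in the others. Untreated shARVCF library 2 had 29 histone genes at 10 or more, while the other 9 libraries had 10 to 19. The 27 described genes below the 5 highest summed to 1089 there, against 819 in the untreated control and 238 to 530 in the other 8 libraries. Of the 32 described genes, 18 had their highest value in that library, 10 in the untreated control and 4 in a nutlin-3a library. Among 11 genes that reached 10 in a single library, 8 did so there. HIST1H1A, a linker histone gene, had 32.4 scaled fragments in it, 1.79 and 0 in untreated shARVCF libraries 1 and 3, 2.74 in the untreated control and 0 in all 6 nutlin-3a libraries. The other 7 single-library genes of that library ran up to 28.4 there, for HIST1H2BM, which encodes an H2B.

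Both RNAs of the signal recognition particle were also highest in that library. Of 15 listed RNAs without a poly(A) tail, 10 were in the table, 3 of them at 0 throughout, and their sum was 1009 scaled fragments in untreated shARVCF library 2 against 56.3 to 247 in the other 9. RN7SL2 made up 875 of it, against 53.2 to 239 elsewhere, and RN7SL1 131, against near 0 to 65.8 elsewhere. The other RNAs of the list had values between 0 and 7.91 in every library. The sum of 16 S phase and replication genes was 60447 there and 57560 to 62339 in the other 3 untreated libraries, so it did not stand apart in that list. The part of carried-over RNA without a tail in the histone values was not tested. Values without this library are given below for the member calls it changes and for the differences of nutlin-3a effects.

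**Figure D2:**
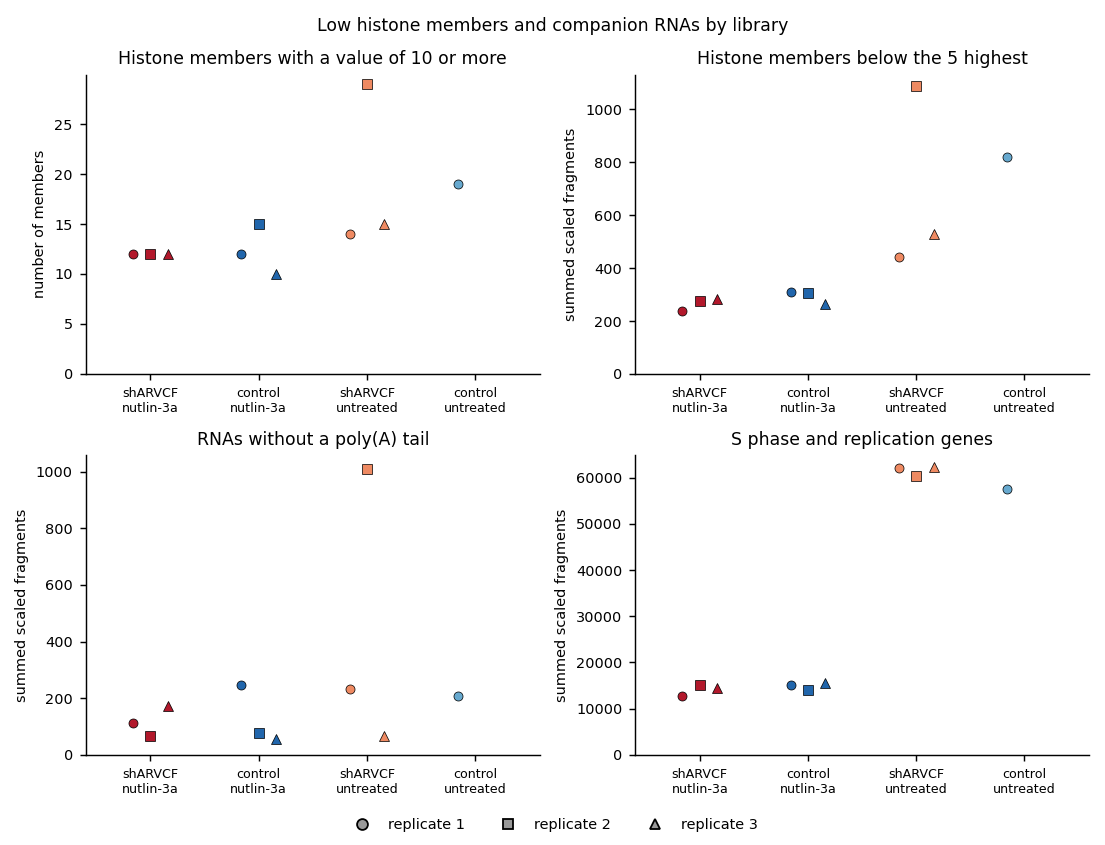
Values by library (points, marker by replicate) in the 4 groups (x axis). Panels show the number of histone genes at 10 or more, and the summed scaled fragments of the 27 lower histone genes, of the RNAs without a poly(A) tail and of the S phase genes, all from 0. Untreated shARVCF library 2 is highest in the first 3 panels (29 genes, 1089 and 1009) and lies at 60447 in the fourth, among the untreated libraries.

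In the 3 shARVCF lines, some histone mRNAs, mostly of the H1, H2A and H2B types, were lower with nutlin-3a. The calls of H1 genes were lost without untreated shARVCF library 2, as given below. By limma on log2(value + 1) with Benjamini-Hochberg adjustment over 14955 genes, 10 of the 18 tested members were lower and 0 were higher, against 21.7% of all tested genes lower and 21.0% higher (42.8% either way). The median log2 difference was -0.95 over the 18 members and -0.0017 over all tested genes. By type, 2 of 2 H1, 3 of 4 H2A, 4 of 7 H2B, 1 of 2 H3 and 0 of 3 H4 genes were lower. Without the 5 genes that needed the untreated libraries to be tested, 7 of 13 were lower: 2 of 2 H1, 2 of 2 H2A, 3 of 5 H2B, 0 of 1 H3 and 0 of 3 H4.

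HIST2H2AC, an H2A gene of the chromosome 1 cluster, had the largest called difference. It had 5.48, 4.63 and 6.65 scaled fragments in nutlin-3a libraries of lines 1, 2 and 3, against 42.9, 43.1 and 29.7 untreated. Every untreated value was above every nutlin-3a value, and the log2 difference was -2.58 (adjusted p = 0.000114 with no filter, limma). HIST1H2AG had 31.95, 37.0 and 32.3 with the drug against 51.8, 113 and 56.9 without it, and fell by 1.02 on the log2 scale (adjusted p = 0.0387). With no filter HIST1H2AG was not called (adjusted p = 0.0532). HIST1H2AC, the H2A gene with the most fragments, had 172, 190 and 197 with the drug against 192, 322 and 398 without it. Its groups overlapped, with untreated line 1 below nutlin-3a line 3, and it fell by 0.64 (adjusted p = 0.0345). With no filter it was not called either (adjusted p = 0.055). HIST1H2AD, the fourth, lay between near 0 and 13.4 with the drug and between near 0 and 14.6 without it, with no order between the groups.

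Among H2B genes, HIST1H2BK had 1137, 1533 and 786 scaled fragments with nutlin-3a against 2691, 3517 and 2168 untreated. The groups did not overlap, each line was lower with the drug, and the log2 difference was -1.30 (SE 0.23, adjusted p = 0.0015). HIST1H2BJ had 74.9, 60.1 and 84.55 with the drug against 121, 247 and 192 without, a log2 difference of -1.29 (adjusted p = 0.000932). HIST1H2BC had 22.8, 36.1 and 29.45 against 42.0, 95.1 and 45.9, a log2 difference of -0.95 (adjusted p = 0.0339). HIST1H2BN had 1.83, 4.63 and 6.65 against 8.94, 21.6 and 17.0, a log2 difference of -1.68 (adjusted p = 0.0199 with no filter), and its groups did not overlap either. HIST1H2BN overlaps HIST1H2AK on the other strand, and the sources used here do not state whether the counting used strand.

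HIST1H2BD and HIST2H2BE were not called and had differences near 0. HIST1H2BD had 289, 458 and 372 scaled fragments with nutlin-3a against 294, 448 and 338 untreated, so each line was near its own untreated level (log2 difference 0.05, 95% interval -0.43 to 0.53). HIST2H2BE, the H2B gene of the chromosome 1 cluster that pairs with HIST2H2AC, had 840, 884 and 827 with the drug against 726, 882 and 704 without it. Its log2 difference was 0.15 (95% interval -0.07 to 0.37, adjusted p = 0.269). HIST1H2BF was between 1.9 and 10.2 with the drug and between 4.47 and 40.2 without it, and was not called.

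HIST1H1C, the main linker histone gene here, had 1245, 1479 and 1345 scaled fragments with nutlin-3a against 1660, 1922 and 1945 untreated. The groups did not overlap and it fell by 0.44 on the log2 scale (adjusted p = 0.0216), a smaller difference than those of HIST1H2BK and HIST2H2AC. HIST1H1E had 5.48, 4.63 and 8.55 against 15.7, 96.1 and 11.7, a log2 difference of -1.96 (adjusted p = 0.0264) that leans on untreated library 2. HIST1H3H, an H3 gene, had 3.65, 4.63 and 5.70 against 18.8, 12.75 and 12.74, a log2 difference of -1.47 (adjusted p = 0.0172 with no filter). All 6 of its nutlin-3a values were below 10, so its place among the tested genes came from the untreated libraries alone. HIST1H3D, the H3 gene with the most fragments, had 19.1, 43.5 and 30.3 against 31.3, 64.8 and 51.0, and its overlapping groups were not called (adjusted p = 0.269).

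The H4 genes were low throughout. HIST1H4H had 16.4, 15.7 and 14.25 scaled fragments with nutlin-3a against 27.7, 46.1 and 27.2 untreated, and with groups that did not overlap it stayed short of the threshold (log2 difference -1.03, adjusted p = 0.064), as it did without untreated library 2 (-0.79). HIST1H4E had 10.3, 9.89 and 6.65 against 14.4, 38.2 and 5.95. HIST4H4, the single gene of the fourth cluster on chromosome 12, had 10.96, 12.95 and 11.4 with the drug against 6.255, 13.7 and 9.35 without it.

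Without untreated shARVCF library 2, 4 of these 10 calls were kept: HIST1H2BJ, HIST1H2BK, HIST1H3H and HIST2H2AC, with log2 differences of -1.06, -1.12, -1.56 and -2.49 in the same order. The other 6 stayed negative, at -0.41 for HIST1H1C, -1.05 for HIST1H1E, -0.57 for HIST1H2AC, -0.67 for HIST1H2AG, -0.58 for HIST1H2BC and -1.43 for HIST1H2BN, with adjusted p between 0.0661 and 0.192 by limma. That left 4 of the 18 tested members lower, beside 18.3% of all tested genes lower in the same fit. Of these 4, HIST1H3H and HIST2H2AC had needed the untreated libraries to be tested. Without nutlin-3a shARVCF library 1, 3 calls were kept (HIST1H2BJ, HIST1H2BK and HIST2H2AC), and without nutlin-3a shARVCF library 2, 6 were kept, with HIST1H1E, HIST1H2AC, HIST1H2AG and HIST1H3H lost. HIST1H2AC was lost under each removal of a shARVCF library except untreated library 1.

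**Figure D3:**
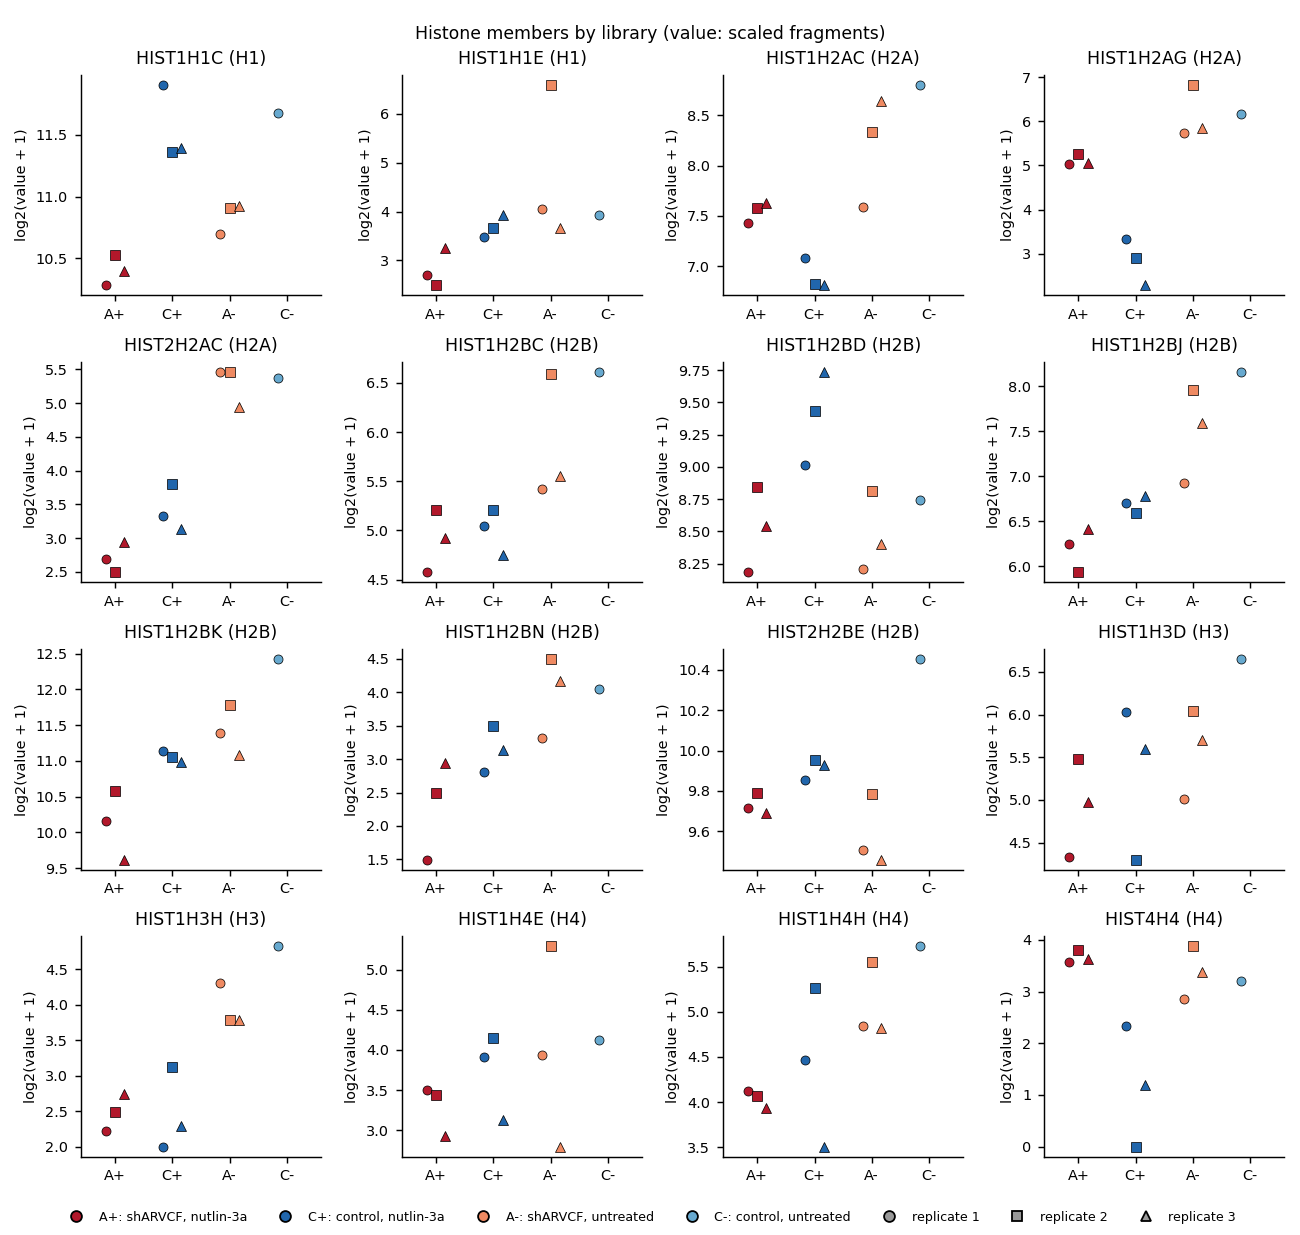
log2(scaled fragments + 1) of 16 histone genes (the 13 called in any comparison and the 2 with the highest mean of each type) in each library, with a y axis of its own in each panel. Groups from left to right are nutlin-3a shARVCF, nutlin-3a control, untreated shARVCF and untreated control, and the marker gives the replicate. HIST2H2AC and HIST1H3H lie lower in all 6 nutlin-3a libraries, whereas HIST2H2BE stands out in the untreated control alone (1402).

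In the control line, 8 of the 18 tested members were lower with nutlin-3a and 0 were higher, against 32.0% of all tested genes lower and 25.1% higher (57.1% either way, limma). The median log2 difference was -1.34 over the members and -0.10 over all tested genes. By type, 0 of 2 H1, 3 of 4 H2A, 4 of 7 H2B, 1 of 2 H3 and 0 of 3 H4 genes were lower. Without the 5 genes that needed the untreated libraries, 6 of 13 were lower, 2 of 2 H2A and 4 of 5 H2B. The untreated side is 1 library, assumed to vary like the other groups.

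HIST1H2AG had the largest called difference, with 9.03, 6.44 and 3.89 scaled fragments in nutlin-3a control libraries 1, 2 and 3 against 71.3 in the untreated one (log2 difference -3.34, SE 0.52, adjusted p = 0.000143). HIST1H2AC had 134, 112 and 111 against 446, a log2 difference of -1.899 (adjusted p = 0.000262). HIST2H2AC had 9.03, 12.9 and 7.77 against 40.2, a log2 difference of -1.95 (adjusted p = 0.00506 with no filter). These 3 called H2A genes thus lay below the single untreated library in every nutlin-3a library. How many of all tested genes did so was not counted. HIST1H2AD, the fourth H2A gene tested, went the other way and was not called. It had near 0, 21.2 and 3.17 against near 0 (log2 difference 2.18).

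The H2B genes lay lower by smaller amounts. HIST1H2BK had 2244, 2117 and 2029 against 5504 (log2 difference -1.37, adjusted p = 0.00572). HIST1H2BJ had 103, 95.3 and 109 against 285 (log2 difference -1.47, adjusted p = 0.00279), and HIST1H2BC had 32.1, 36.1 and 25.9 against 96.9 (log2 difference -1.61, adjusted p = 0.0103). HIST2H2BE had 924, 989 and 975 against 1402, a log2 difference of -0.54 (adjusted p = 0.00641) and the smallest of the 8. HIST1H2BD went the other way in value, with 516, 692 and 853 against 428 (log2 difference 0.65, adjusted p = 0.0939). It was called higher with the replicate block (adjusted p = 0.0253), with upper-quartile scaling (0.82, adjusted p = 0.0395) and without control nutlin-3a library 1 (0.84, adjusted p = 0.0349). HIST1H2BN had 6.02, 10.3 and 7.77 against 15.5 and was not called.

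The linker histone HIST1H1C had 3838, 2625 and 2696 scaled fragments with nutlin-3a against 3280 untreated, so that the untreated value lay inside the drug group (log2 difference -0.13, 95% interval -0.55 to 0.30). HIST1H1E had 10.2, 11.6 and 14.2 against 14.2. HIST1H3H had 3.01, 7.73 and 3.89 against 27.4 (log2 difference -2.36, adjusted p = 0.00625 with no filter), and HIST1H3D had 64.2, 18.7 and 47.3 against 99.6 (adjusted p = 0.0917). HIST1H4H had 21.1, 37.3 and 10.4 against 52.1 (adjusted p = 0.0732), HIST1H4E had 14.0, 16.7 and 7.77 against 16.4, and HIST4H4 had 4.01, 0 and 1.295 against 8.22 (adjusted p = 0.0588).

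Transcript length moved with this comparison. Over all tested genes, the median log2 difference between nutlin-3a and untreated control libraries was 0.75 for 755 genes under 1000 nt and -0.65 for 5849 genes over 4000 nt, while in the shARVCF lines it was 0.07 and -0.01. With each library's trend with length and GC removed, 11 members were lower in the control line, the 8 above among them, and the log2 difference was -2.28 for HIST1H2BK, -2.90 for HIST2H2AC and -0.99 for HIST1H1C. The model lengths of these 3 genes are coding lengths. Without libraries 2 and 3 of the drug group, 6 of the 8 calls held, and HIST1H2BK (-1.29, adjusted p = 0.0531) and HIST1H2BC (-1.56, adjusted p = 0.06) missed the threshold.

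**Figure D4:**
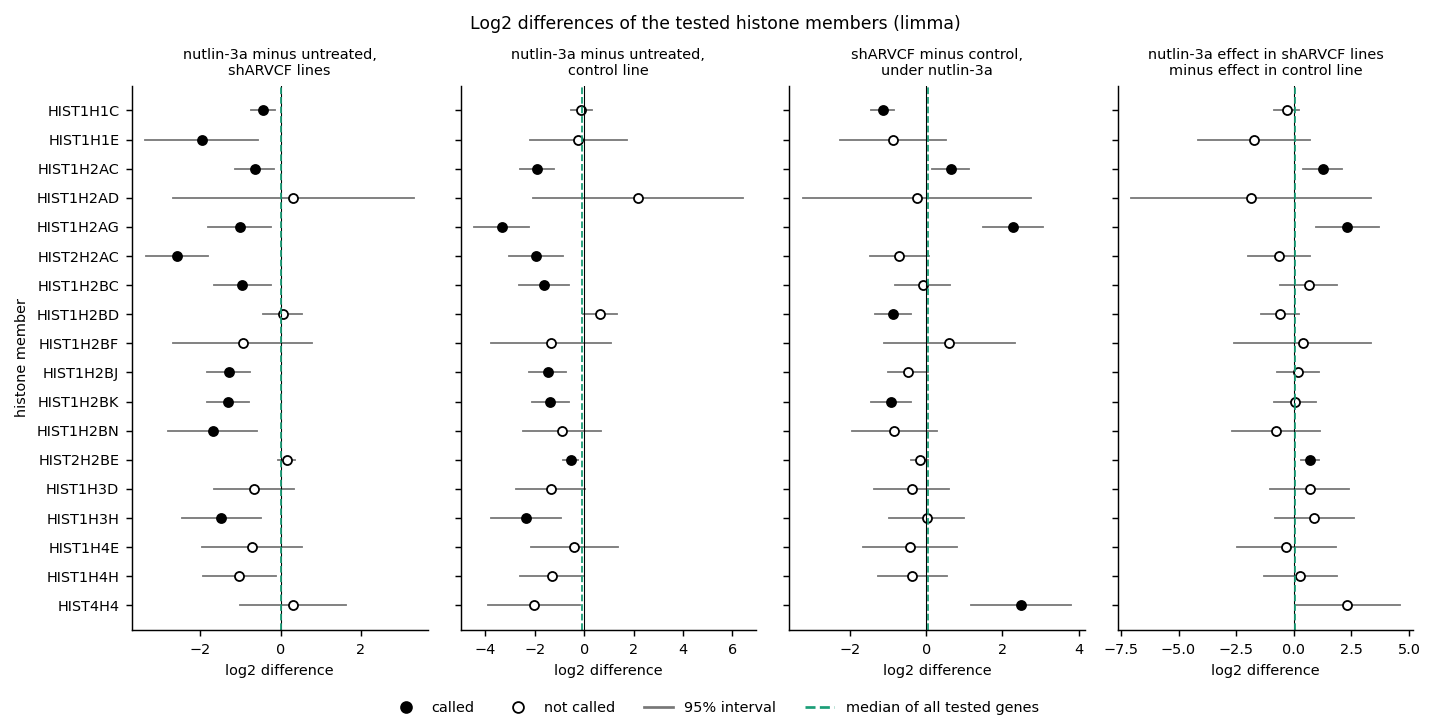
Log2 differences (x axis, on log2(value + 1)) of the 18 tested histone genes (y axis) in 4 comparisons, each panel with its own scale. Points are limma estimates, filled where the adjusted p is under 0.05, lines are 95% intervals and the dashed line is the median of all tested genes. HIST1H2AG stands at -1.02 in the first panel, -3.34 in the second, 2.28 in the third and 2.32 in the fourth.

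Under nutlin-3a, shARVCF lines and the control line differed in both directions. Of the 18 tested members, 3 were higher and 3 lower in the shARVCF lines, against 32.3% of all tested genes higher and 26.1% lower (58.4% either way, limma). The median log2 difference was -0.38 over the members and 0.06 over all tested genes. Higher were the H2A genes HIST1H2AG (2.28, SE 0.36, adjusted p = 0.000174) and HIST1H2AC (0.64, adjusted p = 0.0266) and the H4 gene HIST4H4 (2.50, adjusted p = 0.00406 with no filter), which was tested through its shARVCF nutlin-3a values. Groups did not overlap for these 3: 31.95 to 37.0 against 3.89 to 9.03 for HIST1H2AG, 172 to 197 against 111 to 134 for HIST1H2AC, and 10.96 to 12.95 against 0 to 4.01 for HIST4H4. Without the 3 genes that needed the shARVCF nutlin-3a libraries to be tested, 2 of 15 members were higher and 3 lower.

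Lower in the shARVCF lines were the linker gene HIST1H1C (log2 difference -1.15, SE 0.14, adjusted p = 1.81e-05) and the H2B genes HIST1H2BK (-0.94, adjusted p = 0.00656) and HIST1H2BD (-0.87, adjusted p = 0.00498). HIST1H1C ran from 1245 to 1479 in shARVCF libraries against 2625 to 3838 in control libraries, HIST1H2BK from 786 to 1533 against 2029 to 2244, and HIST1H2BD from 289 to 458 against 516 to 853. Groups did not overlap for any of the 3. HIST1H1E, HIST1H2BJ, HIST2H2AC and HIST2H2BE also had groups that did not overlap, all with lower values in the shARVCF lines, and were not called (adjusted p between 0.0997 and 0.261). How many of all tested genes had groups without overlap was not counted, so no weight is put on this order.

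Not all of these calls held with length or library series taken into account. Over all tested genes the median log2 difference was -0.71 under 1000 nt and 0.60 over 4000 nt. With the length and GC trend removed, HIST1H2BK was at -0.24 (adjusted p = 0.517) and HIST1H2BD at -0.57 (adjusted p = 0.0653), while HIST1H1C at -0.44 (adjusted p = 0.0162), HIST1H2AC, HIST1H2AG and HIST4H4 stayed called. The lengths used for HIST1H2BK (381 nt) and HIST1H1C are coding lengths. RefSeq gives HIST1H2BK a genomic span of 8566 nt, so the trend removed from it may not be the right one. In the first library series alone, where control library 1 is the only nutlin-3a control, HIST1H1C (-1.50) and HIST1H2AG (1.79) were called. There HIST1H2AC was at 0.46 (adjusted p = 0.32), HIST1H2BD at -0.49 (adjusted p = 0.205), HIST1H2BK at -1.01 (adjusted p = 0.0659) and HIST4H4 at 1.35 (adjusted p = 0.0864). With upper-quartile scaling 2 members were higher and 5 lower, and HIST1H2AC was at 0.53 (adjusted p = 0.0584). Without control nutlin-3a library 2 or 3, or shARVCF nutlin-3a library 2 or 3, HIST1H2AC was at 0.59 to 0.62 and not called (adjusted p between 0.0638 and 0.0789).

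Without drug, 0 of the 18 members differed between shARVCF lines and the control library, against 0.0201% of all tested genes (3 genes, limma). At an unadjusted p under 0.05 there were 3 members: HIST2H2BE, HIST1H1C and HIST1H2BK. The share of all tested genes at that threshold was not counted, and the 0.0201% is for adjusted p. HIST2H2BE had 726, 882 and 704 scaled fragments in shARVCF lines 1, 2 and 3 against 1402 in the control (log2 difference -0.87, 95% interval -1.18 to -0.56, adjusted p = 0.103). HIST1H1C had 1660, 1922 and 1945 against 3280 (-0.84, 95% interval -1.26 to -0.41, adjusted p = 0.773), and HIST1H2BK had 2691, 3517 and 2168 against 5504 (-1.01, 95% interval -1.75 to -0.26). All 3 shARVCF libraries lay below the control in each of these genes, but the control is 1 library. With the replicate block, HIST1H2BK (adjusted p = 0.0103) and HIST2H2BE (adjusted p = 0.0358) were called lower, and without untreated shARVCF library 2 HIST2H2BE was at -0.97 (adjusted p = 0.0454), HIST1H1C at -0.87 and HIST1H2BK at -1.19, the last 2 not called.

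The nutlin-3a effect itself differed between shARVCF lines and the control line in 3 of the 18 members, all with a higher log2 difference in the shARVCF lines, against 19.3% of all tested genes higher and 12.5% lower in this difference (31.8% either way, limma). They were HIST1H2AG, HIST1H2AC and HIST2H2BE, whose values are given with the flagged results. The other 15 members were not called, and their intervals were wide: for HIST1H2BK the difference of effects was 0.07 (95% interval -0.84 to 0.98), called at 0.72 with the replicate block and length and GC trends removed (adjusted p = 0.00507), and for HIST2H2AC -0.63 (95% interval -1.97 to 0.71). The length used for HIST1H2BK in that trend is a coding length. Both nutlin-3a effects, the difference and the drug comparison of lines share libraries and are not independent of each other.

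Many H2A and H2B genes lie side by side in pairs. In 11 pairs an H2A and an H2B gene start 194 to 248 nt apart and point away from each other, and in 6 pairs both genes were described. Per kilobase of the longest model, HIST2H2BE averaged 417 scaled fragments and HIST2H2AC 51.9 over the 10 libraries, where the length of HIST2H2AC is a coding length. HIST1H2BJ averaged 144 and HIST1H2AG 18.4 per kilobase, and HIST1H2BC averaged 70.1 and HIST1H2AC 137. With nutlin-3a, the log2 differences in shARVCF and control lines were -2.58 and -1.95 for HIST2H2AC, beside 0.15 and -0.54 for HIST2H2BE. They were -1.02 and -3.34 for HIST1H2AG, beside -1.29 and -1.47 for HIST1H2BJ. They were -0.64 and -1.899 for HIST1H2AC, beside -0.95 and -1.61 for HIST1H2BC. The difference between partners was not tested.

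The genes that make and end histone mRNA mostly lay lower with nutlin-3a. Of 25 listed genes of histone mRNA transcription, processing and decay, 15 were lower and 1 higher in shARVCF lines, and 15 lower and 4 higher in the control line, with medians of -0.59 and -1.33. Over all tested genes, 21.7% were lower and 21.0% higher in shARVCF lines, and 32.0% lower and 25.1% higher in the control line, and these percentages stand beside the lists that follow as well. SLBP had 420, 400 and 422 scaled fragments in nutlin-3a shARVCF libraries and 473, 430 and 365 in nutlin-3a control libraries, against 940, 985 and 967 in untreated shARVCF lines and 922 in the untreated control. The log2 difference was -1.22 in shARVCF lines (adjusted p = 1.98e-06) and -1.13 in the control line (adjusted p = 5.26e-05). CCNA2, CDK2 and CCNE2, which drive the entry into S phase and its course, had log2 differences of -4.79, -2.15 and -5.46 in the same order in the shARVCF lines. CCNE2 stayed below 10 in every nutlin-3a library, so it needed the untreated ones to be tested, which favours a lower call. The counts of this list and of those that follow are not given without such genes.

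NPAT parted between the lines. It had 454, 499 and 464 scaled fragments in nutlin-3a shARVCF libraries and 173, 126 and 120 in nutlin-3a control libraries, against 883, 928 and 794 untreated in shARVCF lines and 894 in the untreated control. Its nutlin-3a effect was -0.88 in shARVCF lines and -2.69 in the control line, a difference of 1.81 (adjusted p = 0.000249). XRN1, the 5′ to 3′ exonuclease, had a difference of effects of 1.77 (adjusted p = 0.000119). Over all tested genes, the median difference of effects was -0.72 under 1000 nt and 0.61 over 4000 nt. The values of NPAT and XRN1, and those of ATRX and POLE below, are given without that length trend removed. Over the list, the difference of effects was higher in 6 and lower in 2 genes, and under nutlin-3a 8 were higher and 7 lower in shARVCF lines. That is 8 and 15 of 25 called, beside 31.8% and 58.4% of all tested genes, so the list was called about as often as all genes. The same 2 percentages stand beside the lists that follow. Without drug 0 of the 25 were called, and 0 were at an unadjusted p under 0.05.

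Most mRNAs for proteins that carry and place histones were lower with the drug. Of 20 tested genes of histone chaperones and assembly, 13 were lower in shARVCF lines and 17 in the control line, and 0 were higher in either, while 7 in shARVCF lines and 3 in the control line were not called. MCM2, a helicase subunit that also binds H3 and H4, fell by 3.17 in shARVCF lines and 3.65 in the control line. ASF1B, which hands H3 and H4 to assembly factors, averaged 38.5 ± 9.89 in nutlin-3a shARVCF libraries and 1102 ± 17.5 in untreated ones (n = 3 each). Under nutlin-3a 7 of the 20 were higher and 6 lower in shARVCF than in control lines, with ATRX, a chromatin remodeller that loads H3.3, at 1.798 (adjusted p = 8.49e-08). The difference of effects was higher in 3 and lower in 0, and without drug 0 were called, with 0 at an unadjusted p under 0.05.

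Replication-independent histone genes encode variants, many but not all of them made throughout the cell cycle. Their mRNAs are mostly polyadenylated, and the mRNA of H2AFX is known to end either way. Of 12 genes, 9 were lower and 0 higher in shARVCF lines with nutlin-3a, and 6 were lower and 1 higher in the control line. H2AFX, the variant phosphorylated at DNA breaks, had 273, 278 and 352.5 scaled fragments in nutlin-3a shARVCF libraries and 580, 567 and 523 in nutlin-3a control libraries, against 4009, 4188 and 4620 in untreated shARVCF lines and 4847 in the untreated control. Its log2 difference was -3.83 in shARVCF lines and -3.12 in the control line, larger in size than that of any replication-dependent member tested in the shARVCF lines. H2AFZ, the H2A.Z gene, fell by 2.26 and 2.06 in the same order. H2AFJ was the gene that was higher in the control line (0.47, adjusted p = 0.043), a call lost without untreated shARVCF library 2 (adjusted p = 0.0574). It had 608, 701 and 677 there with the drug against 478 without, and it was lower in the shARVCF lines (-0.74). Between lines under nutlin-3a, 0 were higher and 4 lower in shARVCF, the difference of effects was lower in 2 and higher in 0, and without drug 0 were called, with 0 at an unadjusted p under 0.05.

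Most mRNAs of S phase genes were lower in the same libraries. Of 16 S phase and replication genes, 15 were lower and 0 higher with nutlin-3a in shARVCF lines and in the control line alike, with medians of -3.44 and -3.63. Their sums were 12681 to 15234 in nutlin-3a shARVCF libraries and 14009 to 15566 in nutlin-3a control libraries, against 60447 to 62339 in untreated shARVCF lines and 57560 in the untreated control. Between lines under nutlin-3a, 7 were higher and 1 lower in shARVCF, and the smallest adjusted p was that of POLE, the leading-strand polymerase (log2 difference 1.025, adjusted p = 1.84e-05). The difference of effects was higher in 2 and lower in 1, and without drug 0 were called, with 1 at an unadjusted p under 0.05. PCNA, the sliding clamp of DNA polymerases, was the gene not called (-0.16 and 0.28 in shARVCF and control lines). The share of cells in S phase was not measured, and its part in the histone values was not tested. Of the RNAs without a poly(A) tail, 2 were tested: RN7SL1, with libraries that overlapped in the shARVCF lines, was lower with the drug in shARVCF lines (adjusted p = 0.0341, and 0.116 without untreated library 2) and in the control line (adjusted p = 0.0324), and RN7SL2 was called in no comparison.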

How the data were processed

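Per the submitters' processing notes, bcl2fastq 1.8.3, HISAT2 2.1.0, Cuffnorm 2.2.1 and the build hg38 were used. The sources used here do not state the annotation or the handling of strand and shared reads. Values in the deposited table are a signal: fragments per gene and library as estimated by the authors, scaled per library. The values are not whole counts: 67.7% to 71.1% of low positive values per library were whole multiples, within 0.01, of the value of 1 fragment. Therefore no count test was run. That value puts unscaled totals at an estimated 15073578 to 21096205 fragments, and no interval from counting was computed.

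A model with 4 group means was fitted to log2(value + 1) of all 10 libraries for 14955 genes with at least 10 in at least 3 libraries (limma 3.58.1, R 4.3.3, trend and robust variances). Tests were two-sided, with Benjamini-Hochberg adjustment over all tested genes in each of 5 comparisons, called at 0.05. Whether replicates came from separate cultures is not labelled, so p-values measure the spread between these libraries. The fit was tested on simulated data.

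Members and lists were chosen with earlier results of these data known. Named with all values were members called in any comparison and the 2 of each type with the highest mean. From each companion list (histone mRNA transcription and processing, chaperones, replication-independent histones, RNAs without a poly(A) tail, S phase), up to 4 genes with the smallest adjusted p per comparison could be named. SLBP, outside that rule, was named for its role after its values were seen. Lengths and GC came from GENCODE release 29, where 24016 symbols matched directly, 789 through older names and 1235 not at all.

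Alternatives were pseudocounts of 0.1 and 10, no filter, a stricter filter relative to the library total, library-total, upper-quartile and relative log expression scaling, removal of length and GC trends (splines, 4 degrees of freedom), a replicate block on shRNA line, the first library series alone, series as a term, and each library left out. After the data were seen, 1 was added: leaving out untreated shARVCF library 2 with length and GC trends removed. Residuals of shARVCF libraries of the same line correlated at 0.27, 0.29 and 0.33 across genes, and those of different lines at -0.20 to -0.09, so the numbers pair those libraries.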

Additional observations from a re-analysis of the deposited data

Results flagged for a closer look

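The nutlin-3a effect differed between shARVCF lines and the control line in 3 of the 18 tested members, by limma's test of the difference of effects. Over all tested genes 31.8% were called in that test (19.3% higher and 12.5% lower), so members were called less often than genes at large. Unless stated, values here are given without the length and GC trend removed. Over all tested genes, the median difference of effects was -0.72 under 1000 nt and 0.61 over 4000 nt. HIST1H2AG was lower in each shARVCF line (-0.68, -1.58 and -0.80 in lines 1, 2 and 3) and in each control library (-2.85, -3.28 and -3.89), and the difference was 2.319 on the log2 scale (adjusted p = 0.0144). Over 22 alternatives the difference ran from 1.448 to 2.681, and the call was lost in 2 of them (adjusted p up to 0.0769). It was 2.67 without untreated shARVCF library 2 (adjusted p = 0.00765), and 1.83 in the first library series alone (adjusted p = 0.0671).

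HIST1H2AC had log2 changes of -0.16, -0.76 and -1.01 in the shARVCF lines, against -1.72, -1.98 and -1.99 in the control libraries. The difference was 1.255 (adjusted p = 0.0269), 1.33 without untreated shARVCF library 2 (adjusted p = 0.0332) and 1.08 in the first series alone (adjusted p = 0.15). Leaving out 1 library at a time gave 0.957 to 1.48, with the call lost without control nutlin-3a library 2 (adjusted p = 0.0553) or 3 (adjusted p = 0.0535), and series as a term gave an adjusted p of 0.111.

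HIST2H2BE had changes of 0.21, 0.00 and 0.23 in shARVCF lines, not called there, against -0.60, -0.50 and -0.52 in control libraries, where it was called lower. The difference was 0.6905 (adjusted p = 0.0104), 0.79 without untreated shARVCF library 2 (adjusted p = 0.0047) and 0.75 in the first series alone (adjusted p = 0.0307). All 3 control changes use the same untreated library, in which HIST2H2BE had its highest value, 1402 scaled fragments. The part of that 1 library in the 3 differences was not tested, since no other untreated control is in the data used here.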

How the results depend on the processing

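The 27 calls of a member in a comparison kept their direction under every alternative run: 544 results stayed called and 61 fell short of the threshold. Under the replicate block all 27 calls were kept. It also called HIST1H2BD higher in the control line, and 2 members without drug, or 1 with length and GC trends removed as well, a fit that also called the difference of effects of HIST1H2BK (0.72). Among counts of called members, those outside 1.5 times the reported one were 14 in the control line with no filter and 2 each for shARVCF against control under nutlin-3a in the first series alone and with series as a term. In the shARVCF lines the count was 6 without untreated shARVCF library 2 with trends removed, where HIST2H2BE was called higher. Leaving out 1 library at a time gave 3 to 11 members in the shARVCF lines, 8 to 11 in the control line, 5 to 7 between lines under nutlin-3a, 0 to 1 without drug and 2 to 4 for the difference of effects. Over all genes, shARVCF against control under nutlin-3a gave 8731 calls, 5745 with length and GC trends removed and 5465 with untreated shARVCF library 2 left out too. Without drug the 3 calls became 8 with a pseudocount of 0.1, 8 with the replicate block, 0 with a pseudocount of 10, 0 with trends removed, 1 in the first series alone, 1 under the added alternative, and 1 to 5 with 1 library left out. For the difference of effects the 4756 calls became 2008 with trends removed, 2944 with the replicate block as well, and 1611 under the added alternative. Upper-quartile scaling turned its split of 2893 higher and 1863 lower into 2493 and 2540, and scaling moved the median of all genes most in the control line, from -0.10 to 0.07 with upper quartiles and to -0.21 with library totals. Upper-quartile scaling gave type sums of 3144 for H1 and 7411 for H2B in the untreated control and 4210 for H2B in nutlin-3a control libraries (4058 with relative log expression scaling), and all 14 H4 genes summed to 45.8 in nutlin-3a shARVCF lines. No alternative supplies a second untreated control library or RNA without poly(A) selection, and values near 10 rest on few fragments.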
